A study of Homo sapiens with 6 samples.

Results

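The genes described here encode the nuclear factors that copy mitochondrial DNA (mtDNA), transcribe it and process, stabilise and degrade its RNA, together with 3 nuclear regulators of such genes. The list held 38 genes and was taken by gene symbol, without a filter on measured values. Earlier results of these data were known when it was chosen. Of these genes, 37 were among the 12982 genes of the deposited table, while MTERF1 was not analysed here. RNA sequencing of these genes was done in SW480 cells, an established line from a human colorectal adenocarcinoma, whose genotype is labelled WT and which were grown in DMEM with serum and glutamine. The cells received DMSO, the solvent control, or MPM-1, called WT4 in the labels, for 24 h, and each treatment had 3 libraries. The dose of MPM-1 is not given for this experiment in the sources used here, and 1 cell line was examined. Nothing in the sources says that the libraries came from separate cultures, so the p-values measure only the spread between these libraries, which may be technical.

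Human mtDNA is a small circular genome that is read from both strands into long transcripts, and all proteins that copy and read it are encoded in the nucleus and imported. The transcripts carry tRNAs between most of the coding sequences, and cutting at the ends of the tRNAs releases the mRNAs, which are then polyadenylated, held stable by RNA-binding proteins or degraded. Nuclear respiratory factor NRF1, the ETS factor GABP, the receptor ESRRA and coactivators of the PGC-1 family are known regulators of many of the nuclear genes involved.

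The counts summed to 31733667 to 40269820 per library, and the TMM scaling factors ran from 1.03 to 1.07 in DMSO and from 0.930 to 0.969 after MPM-1. The mRNAs encoded by mtDNA took 8.28% to 9.11% of all counts in the DMSO libraries and 1.95% to 2.35% after MPM-1. All 8 colorectal epithelial markers examined were in the table. KRT8, KRT18, KRT19 and CDH1 were higher (50% of the 8, against 27.7% of all genes). VIL1, CDX1 and CDX2 were lower (37.5%, against 28.8% of all genes), and EPCAM did not pass. CPM here are counts corrected by TMM for the size of the library. CDX2 had the largest fall, at 79.1 to 86.1 CPM in DMSO and 13.0 to 20.9 CPM after MPM-1. KRT18 had the largest rise, at 1776 to 1997 CPM in DMSO and 3349 to 3606 CPM after MPM-1. Of 8 markers of leukocytes, fibroblasts and endothelium, the table held CD68 (57.3 to 86.0 CPM in DMSO and 136 to 153 CPM after MPM-1) and COL1A1 (2.67 to 3.34 and 0.197 to 1.20 CPM), and the other 6 were not analysed here. MKI67, a marker of dividing cells, was at 188 to 199 CPM in DMSO and 37.4 to 48.6 CPM after MPM-1. The part of these markers in the results on the members was not tested, and in bulk RNA a change in the mix of cells cannot be told apart from a change in RNA per cell. Libraries of a group were not alike for the members either, since DMSO library 1 was the lowest of its group for 28 of 37 members and MPM-1 library 1 for 19 of 37. The median deviation of the members from the group mean was small there, at -0.10 and -0.05 on the log2 scale. The same share over all genes was not computed, and genes of the same library are not independent.

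Of the 37 members, 18 were lower after MPM-1, 4 were higher and 15 did not pass the test (the quasi-likelihood test of edgeR, p-values adjusted by Benjamini-Hochberg over all genes, threshold 0.05, used throughout). The share of members called lower was 48.6%, against 28.8% of all genes tested, and the share called higher was 10.8%, against 27.7% of all genes. The members that were higher were REXO2, SUPV3L1, LRPPRC and HSD17B10. A differentially expressed gene (DEG) was one with an adjusted p under 0.01 that changed 2-fold or more. By this criterion 1 member was higher (REXO2, against 5.58% of all genes) and 4 were lower (TRMT10C, TWNK, FASTKD3 and MGME1, against 8.75% of all genes), 5 DEGs in all against a background of 14.3%. The median log2 fold change of the members was -0.37, against -0.03 for all genes, and 29 of 37 estimates were below 0. Most of the falls were small, and 14 of the 18 members called lower changed by less than 2-fold. In 20 members every MPM-1 library lay below every DMSO library, against 33.3% of all genes, and in 4 every one lay above, against 31% of all genes. Together these were 64.9% of the members and 64.3% of all genes. The number of higher and lower calls depended on the scaling, since library size alone, without TMM, gave 2 higher and 23 lower, in a fit that called 19.9% of all genes higher and 37.5% lower and moved the median of all genes to -0.18.

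**Figure D1:**
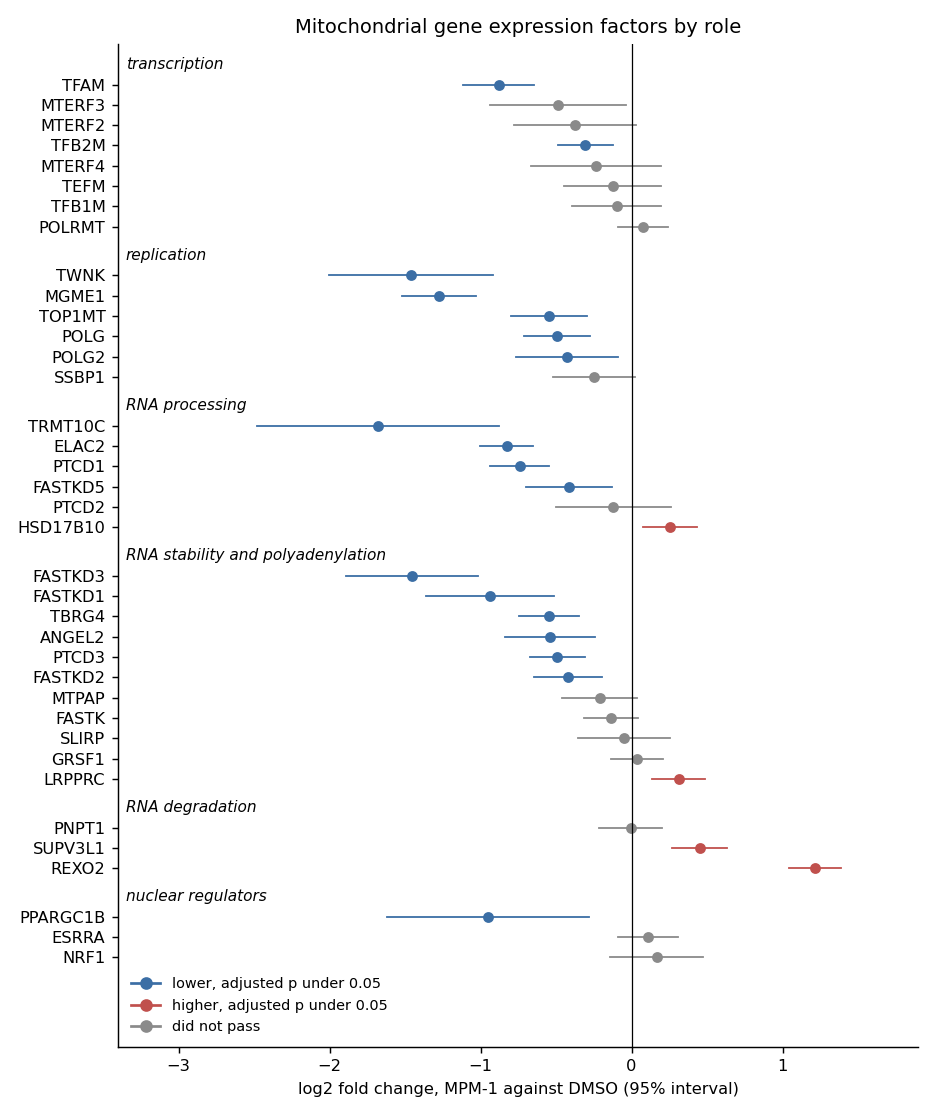
Log2 fold change of each of the 37 members, MPM-1 against DMSO, with its 95% interval from edgeR, grouped by role and coloured by the call. The points of the replication genes all lie left of 0, whereas REXO2 and SUPV3L1 lie to the right.

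Of the 3 nuclear regulators among the members, 1 was lower (33.3%, against 28.8% of all genes) and none was higher (against 27.7%). PPARGC1B, a coactivator of the PGC-1 family, was at 3.67, 4.93 and 3.99 CPM in DMSO libraries 1 to 3 and at 1.31, 2.60 and 2.59 CPM in MPM-1 libraries 1 to 3. The groups did not overlap, but the gene was the scarcest member, with a count of 40 in its lowest library. Its log2 fold change was -0.95 ± 0.30 (SE, n = 3 and 3, edgeR adjusted p = 0.0213), and the call was lost without DMSO library 2 (-0.82, adjusted p = 0.0827) or MPM-1 library 1 (-0.68, adjusted p = 0.0514).

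NRF1, the transcription factor whose binding sites recur in promoters of mitochondrial genes, was at 16.9, 14.1 and 13.2 CPM in DMSO and at 15.3, 17.8 and 16.5 CPM after MPM-1. These ranges overlapped, and its log2 fold change was 0.17 (95% interval -0.14 to 0.47, edgeR adjusted p = 0.324). ESRRA, an orphan nuclear receptor that acts with PGC-1 coactivators, was at 96.4, 86.7 and 86.8 CPM in DMSO and at 87.7, 97.7 and 105 CPM after MPM-1. Its ranges overlapped as well, with a log2 fold change of 0.11 (95% interval -0.09 to 0.30, adjusted p = 0.332). Both intervals leave out a change of 2-fold in either direction.

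Of 15 other nuclear regulators of mitochondrial genes that were listed, 12 were in the table, and 6 of these were higher, 4 lower and 2 did not pass. That is 50% higher, against 27.7% of all genes, and 33.3% lower, against 28.8%. The higher ones were led by PERM1, a muscle-enriched regulator that acts with PGC-1 and ESRRA, which was at 1.58, 2.96 and 2.79 CPM in DMSO and at 7.48, 5.43 and 6.43 CPM after MPM-1 (log2 fold change 1.39, edgeR adjusted p = 0.00185). They were followed by SIRT1, a deacetylase of PGC-1 alpha (0.79, adjusted p = 0.000539), and GABPB1, a beta subunit of GABP (0.29, adjusted p = 0.0207). The falls were led by MYC (log2 fold change -1.64, adjusted p = 0.000313), followed by GABPB2, the other beta subunit (-1.16, adjusted p = 0.00239), and GABPA, the DNA-binding subunit of GABP (-0.44, adjusted p = 0.0016). The subunits of GABP thus lay on both sides of 0 in the same libraries.

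Because NRF1 and ETS factors are known for acting at these promoters, the letters of 5 motifs were searched on both strands in RefSeq promoters on GRCh38.p14, from 250 bases before to 50 after the start of each gene. Of the 37 members, 32 had a promoter in the table used, some of them several, 37 promoters in all, and FASTKD5, MTERF3, NRF1, TOP1MT and TWNK were not matched. The NRF1 motif was found in 7 of the 37 promoters (18.9%), each of another gene, against 5.78% of all promoters and 9.96% of the promoters of genes in the count table. Of these 7 members, TFAM, POLG2 and PTCD1 were lower after MPM-1, REXO2 was higher, and POLRMT, TFB1M and ESRRA did not pass the test. The stretches around the match are given with the match in capitals, and the same letters, GCGC before and after a short spacer, stand near the starts of genes with every kind of call. They lie at chr10:58385322-58385381 (TFAM, plus strand), chr17:64497034-64497093 (POLG2, minus strand), chr7:99438769-99438828 (PTCD1, minus strand), chr11:114439437-114439496 (REXO2, plus strand), chr19:633524-633583 (POLRMT, minus strand), chr6:155314582-155314641 (TFB1M, minus strand) and chr11:64305406-64305465 (ESRRA, plus strand).
TFAM: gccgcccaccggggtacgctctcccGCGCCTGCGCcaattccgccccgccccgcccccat
POLG2: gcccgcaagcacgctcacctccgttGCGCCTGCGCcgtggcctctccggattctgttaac
PTCD1: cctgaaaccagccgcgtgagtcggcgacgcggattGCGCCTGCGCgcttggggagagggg
REXO2: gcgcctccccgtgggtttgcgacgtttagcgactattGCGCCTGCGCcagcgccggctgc
POLRMT: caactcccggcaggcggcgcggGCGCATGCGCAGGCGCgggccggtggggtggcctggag
TFB1M: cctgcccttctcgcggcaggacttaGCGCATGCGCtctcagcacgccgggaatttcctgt
ESRRA: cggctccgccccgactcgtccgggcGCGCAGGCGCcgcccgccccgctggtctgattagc

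The ETS letters CCGGAAG, the core that GABP binds, were found in 13 of the 37 promoters (35.1%), against 10.3% of all promoters and 17.2% of those of genes in the count table. These promoters belong to 10 of the 32 members with a promoter (31.25%). The promoters of SSBP1 overlap and hold the same site, as do those of SLIRP. Of the 10 members, ELAC2, POLG2, TBRG4 and TRMT10C were lower, none was higher and 6 did not pass, these being MTERF4, POLRMT, SLIRP, SSBP1, TEFM and TFB1M. The members called lower that held more than 1 match within 60 bases are given with the letters on either strand in capitals. They lie at chr3:101561803-101561862 (TRMT10C, plus strand), chr7:45111752-45111811 (TBRG4, minus strand) and chr17:13018205-13018264 (ELAC2, minus strand). Of the other 3 motifs, that of YY1 was found at SLIRP, the ATF4 letters TGATGNAA at SSBP1, and the ESRRA letters TCAAGGTCA in none of the 37 promoters. YY1 letters were in 5.41% of the member promoters, against 0.849% of all and 1.74% of those of genes in the count table. For the ATF4 letters these shares were 2.70%, 3.62% and 1.91%. The ESRRA letters are rare everywhere, in 0.353% of all promoters and 0.193% of those of genes in the count table. A match is a run of letters and not a measured binding site, and no match says only that these letters are not in this window.
TRMT10C: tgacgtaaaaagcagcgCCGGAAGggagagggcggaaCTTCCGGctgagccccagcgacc
TBRG4: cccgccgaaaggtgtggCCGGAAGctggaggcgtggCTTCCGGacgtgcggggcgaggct
ELAC2: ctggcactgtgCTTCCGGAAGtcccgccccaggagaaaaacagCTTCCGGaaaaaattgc

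Among the 8 transcription genes measured, TFAM and TFB2M were lower, none was higher and 6 did not pass, with a median log2 fold change of -0.27. That is 25% lower, near the 28.8% of all genes, and 0% higher, against 27.7%. TFAM, which packages mtDNA and bends its promoters for initiation, lies at chr10:58385022-58399221 on GRCh38 and was at 34.7, 43.8 and 40.5 CPM in DMSO. After MPM-1 it was at 21.2, 22.1 and 21.4 CPM. Every MPM-1 library lay below every DMSO library, and the group means were 39.7 ± 4.57 and 21.6 ± 0.517 CPM (SD, n = 3 each). TFAM was thus 1.84-fold lower (log2 fold change -0.88 ± 0.10, SE, edgeR adjusted p = 9.47e-05). Reads of its pseudogenes TFAMP1 and TFAMP2 may be shared with it, and the same holds for POLRMT, ESRRA, PNPT1 and PTCD2, which also have named pseudogenes, because how the authors counted such reads is not given in the sources used here.

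TFB2M, which opens the promoter together with the polymerase, was at 38.0, 38.6 and 36.1 CPM in DMSO and at 30.2, 29.98 and 31.0 CPM after MPM-1. The groups did not overlap, although the fall was 1.24-fold (log2 fold change -0.31 ± 0.08, edgeR adjusted p = 0.0094). POLRMT, the mitochondrial RNA polymerase itself, was at 91.4, 87.1 and 83.0 CPM in DMSO and at 89.2, 91.3 and 95.5 CPM after MPM-1. Its groups overlapped, and its log2 fold change was 0.08 (95% interval -0.09 to 0.24, adjusted p = 0.393), an interval that leaves out a fall of the size measured for TFAM.

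The remaining transcription genes had estimates below 0 that did not pass. TEFM, the elongation factor, was at -0.12, and TFB1M, the relative of TFB2M that methylates the small ribosomal RNA, at -0.10 on the log2 fold change scale. The values were -0.48 for MTERF3, -0.37 for MTERF2 and -0.24 for MTERF4, members of the family named after a mitochondrial termination factor. MTERF3 had groups that did not overlap, and it passed in the DESeq2 test (-0.47, adjusted p = 0.0366), under library size alone (-0.63, adjusted p = 0.0286) and in limma on FPKM (-0.66, adjusted p = 0.0248 with a pseudocount of 0.1). Each of the MTERF genes passed when 1 library was left out: MTERF2 without DMSO library 1 (-0.50, edgeR adjusted p = 0.0372), and MTERF3 (-0.62, adjusted p = 0.0332) and MTERF4 (-0.47, adjusted p = 0.0278) without MPM-1 library 2. For MTERF4, 51.0% of the exon bases overlap SNED1 on the opposite strand, and whether counting used strand is not given in the sources used here, so its counts may hold reads of SNED1.

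**Figure D2:**
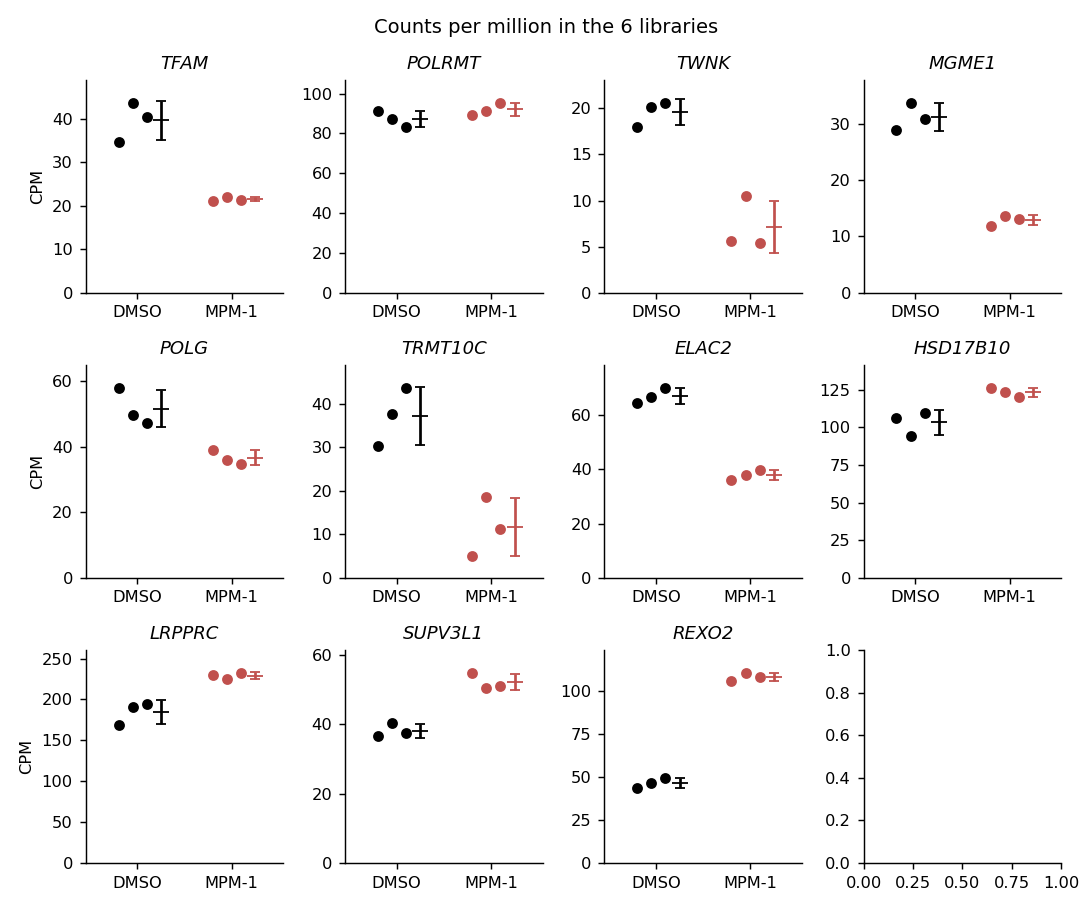
CPM after TMM scaling in each of the 6 libraries for selected members, with the mean and SD of the 3 libraries of each treatment and each axis starting at 0. The MPM-1 points lie below all DMSO points for TFAM, TWNK, MGME1, POLG, TRMT10C and ELAC2. They lie above all DMSO points for HSD17B10, LRPPRC, SUPV3L1 and REXO2, and overlap them for POLRMT.

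Of the 6 replication genes, 5 were lower, none was higher and SSBP1 did not pass, with a median log2 fold change of -0.52. That is 83.3% lower, against 28.8% of all genes, and 0% higher, against 27.7%. TWNK, the helicase Twinkle that unwinds mtDNA at the fork, lies at chr10:100987367-100994401 and was at 18.0, 20.1 and 20.6 CPM in DMSO. After MPM-1 it was at 5.58, 10.4 and 5.36 CPM, so that MPM-1 library 2 stood between the other MPM-1 libraries and the DMSO libraries. The groups did not overlap and the log2 fold change was -1.46 ± 0.24 (SE, edgeR adjusted p = 0.000743), or 2.75-fold lower, with a range of -1.81 to -1.28 when each library was left out in turn.

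MGME1, an exonuclease that trims the ends of newly made mtDNA, lies at chr20:17968913-17991122 and was at 28.9, 33.8 and 30.9 CPM in DMSO. It was at 11.9, 13.6 and 13.2 CPM after MPM-1. The libraries of each group lay close together and the groups were far apart, giving a log2 fold change of -1.28 ± 0.11 (edgeR adjusted p = 1.46e-05), or 2.42-fold lower. TOP1MT, the mitochondrial type I topoisomerase, was at 48.8, 49.3 and 53.0 CPM in DMSO and at 39.4, 29.1 and 35.1 CPM after MPM-1, without overlap (-0.55 ± 0.11, adjusted p = 0.00253).

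Both subunits of the mtDNA polymerase were lower. POLG, the catalytic subunit, was at 58.0, 49.6 and 47.2 CPM in DMSO and at 39.1, 36.0 and 34.8 CPM after MPM-1, with no overlap (log2 fold change -0.49 ± 0.10, edgeR adjusted p = 0.00215). POLG2, the accessory subunit that holds the enzyme on its template, was at 13.9, 15.3 and 15.3 CPM in DMSO and at 9.58, 13.0 and 10.5 CPM after MPM-1 (-0.43 ± 0.15, adjusted p = 0.0342). Its call was lost when DMSO library 2 or 3 or MPM-1 library 1 or 3 was left out, with adjusted p from 0.0954 to 0.104. The exons of POLG overlap those of FANCI on the opposite strand over 7.66% of their bases. POLG did not pass in limma on FPKM although its log2 fold change was no smaller there (-0.53, adjusted p = 0.0656 with a pseudocount of 0.1). Its FPKM was 20.4, 13.1 and 11.7 in DMSO and 8.15, 11.6 and 10.9 after MPM-1. SSBP1, which coats single-stranded mtDNA, had overlapping groups and a log2 fold change of -0.25 (95% interval -0.52 to 0.02, edgeR adjusted p = 0.107). It passed without DMSO library 1 (-0.36, edgeR adjusted p = 0.0171) and under library size alone (-0.40, edgeR adjusted p = 0.0255). SSBP1 also passed in limma on FPKM (-0.40, adjusted p = 0.0392 with a pseudocount of 0.1).

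Of 20 other genes of mtDNA maintenance, all in the table, 5 were lower, 3 higher and 12 did not pass, and their median log2 fold change was -0.07. That is 25% lower, near the 28.8% of all genes, and 15% higher, against 27.7%. The falls were led by FEN1, a flap endonuclease that also serves nuclear DNA replication, at 42.0, 48.8 and 49.1 CPM in DMSO and 12.0, 19.3 and 18.3 CPM after MPM-1 (log2 fold change -1.50, edgeR adjusted p = 5.91e-05). They were followed by ENDOG, a mitochondrial endonuclease (-1.01, adjusted p = 0.000261), and DNA2, a nuclease and helicase of both compartments (-0.60, adjusted p = 0.00434). The rises were led by SLC25A36, a pyrimidine nucleotide carrier, at 77.1, 87.0 and 80.1 CPM in DMSO and 195, 175 and 192 CPM after MPM-1 (log2 fold change 1.20, adjusted p = 3.79e-06). SUCLA2, a subunit of succinyl-CoA ligase (0.31, adjusted p = 0.00571), and RNASEH1, which removes RNA from hybrids with DNA (0.28, adjusted p = 0.0497), were the others.

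Of the 6 RNA processing genes, 4 were lower, HSD17B10 was higher and PTCD2 did not pass, with a median log2 fold change of -0.58. That is 66.7% lower, against 28.8% of all genes, and 16.7% higher, against 27.7%. TRMT10C, HSD17B10 and a catalytic protein encoded by KIAA0391 (PRORP) form the mitochondrial ribonuclease P, which cuts at the 5′ end of tRNAs, and their transcripts had different calls. TRMT10C, the tRNA methyltransferase subunit at chr3:101561862-101566446, was at 30.3, 37.6 and 43.7 CPM in DMSO. It was at 5.05, 18.5 and 11.3 CPM after MPM-1, so the groups did not overlap but the MPM-1 libraries differed among themselves more than for any other member (SD of log2 CPM 0.939, against a median of 0.124 over the members). Its log2 fold change was -1.68 ± 0.36 (edgeR adjusted p = 0.00309), or 3.20-fold lower, and it ran from -2.15 to -1.31 when each library was left out, still passing in all 6 fits (largest adjusted p 0.0140).

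HSD17B10, a dehydrogenase that is the partner of TRMT10C in that complex, was at 107, 94.1 and 109.6 CPM in DMSO and at 126, 123 and 120.2 CPM after MPM-1. These groups did not overlap, and the rise was 1.19-fold (log2 fold change 0.25 ± 0.08, edgeR adjusted p = 0.0217). The call was lost without DMSO library 2 (0.19, adjusted p = 0.0931) and under library size alone (0.10, adjusted p = 0.263). KIAA0391 was at 43.5, 45.2 and 51.4 CPM in DMSO and at 49.6, 52.4 and 46.6 CPM after MPM-1, overlapping (log2 fold change 0.09, adjusted p = 0.441).

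ELAC2, the ribonuclease Z that cuts at the 3′ end of tRNAs, was at 64.4, 66.7 and 70.2 CPM in DMSO and at 35.9, 37.9 and 39.7 CPM after MPM-1. The groups lay well apart (log2 fold change -0.83 ± 0.08, edgeR adjusted p = 2.62e-05), or 1.77-fold lower. PTCD1, a pentatricopeptide repeat protein, was at 37.4, 39.8 and 40.0 CPM in DMSO and at 21.99, 24.6 and 23.5 CPM after MPM-1 (-0.74 ± 0.09, adjusted p = 0.0001). Its groups did not overlap, but 41.0% of its exon bases are shared on the same strand with the read-through gene ATP5MF-PTCD1, which was not analysed here, and the counts cannot be divided between them.

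FASTKD5, which is needed to process transcripts that no tRNA separates, had a log2 fold change of -0.42 ± 0.13 (edgeR adjusted p = 0.0191) without overlap between groups. The call was lost without DMSO library 1 or 2 or MPM-1 library 2 or 3, with adjusted p from 0.0609 to 0.0825. PTCD2, a pentatricopeptide repeat protein, had overlapping groups and a log2 fold change of -0.12 (95% interval -0.50 to 0.26).

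Of 30 symbols listed for other genes of mitochondrial RNA processing and modification, 4 being older or newer names of the same genes, 26 were in the table. Of these, 12 were lower, 3 were higher and 11 did not pass, with a median log2 fold change of -0.29. That is 46.2% lower, against 28.8% of all genes, and 11.5% higher, against 27.7%. The methyltransferases of the large ribosomal RNA led the falls, with MRM1 at 4.12, 4.77 and 5.77 CPM in DMSO and 1.64, 1.69 and 0.685 CPM after MPM-1 (log2 fold change -1.87, edgeR adjusted p = 0.00132). MRM2 (-0.93, adjusted p = 0.00327) and MRM3 (-0.82, adjusted p = 0.00037) followed. The rises were led by NGRN, which is needed for the large ribosomal RNA, at 112, 103 and 103 CPM in DMSO and 162, 167 and 176 CPM after MPM-1 (0.67, adjusted p = 6.96e-05). MTO1, a tRNA-modifying enzyme (0.53, adjusted p = 0.000489), and NSUN4, a methyltransferase of the small ribosomal RNA (0.38, adjusted p = 0.0305), were the others.

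Among the 11 genes of RNA stability and polyadenylation, 6 were lower, LRPPRC was higher and 4 did not pass, with a median log2 fold change of -0.42. That is 54.5% lower, against 28.8% of all genes, and 9.09% higher, against 27.7%. The falls lay mostly in the FASTK family of RNA-binding proteins, of which FASTKD1, FASTKD2, FASTKD3 and TBRG4 (also FASTKD4) were lower and FASTK itself did not pass. FASTKD3, at chr5:7859159-7869037, was at 11.4, 13.2 and 12.2 CPM in DMSO and at 3.81, 5.66 and 3.96 CPM after MPM-1. All MPM-1 libraries lay below the DMSO libraries, with a log2 fold change of -1.45 ± 0.19 (edgeR adjusted p = 0.000197), or 2.74-fold lower.

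FASTKD1 was at 12.9, 15.6 and 18.1 CPM in DMSO and at 6.40, 9.23 and 8.76 CPM after MPM-1, without overlap (log2 fold change -0.94 ± 0.19, edgeR adjusted p = 0.00226). TBRG4 was at 91.4, 92.6 and 97.5 CPM in DMSO and at 60.5, 72.0 and 60.5 CPM after MPM-1, also without overlap (adjusted p = 0.000631), and was 1.46-fold lower. FASTKD2, which acts on the large ribosomal RNA, was lower by 1.34-fold (log2 fold change -0.42, adjusted p = 0.00579), PTCD3, a protein of the small mitochondrial ribosomal subunit, by 1.41-fold (-0.49, adjusted p = 0.000781), and ANGEL2 by 1.45-fold (-0.54, adjusted p = 0.00699). FASTK was at -0.14 (95% interval -0.31 to 0.04) on the log2 scale.

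LRPPRC and SLIRP form a complex that stabilises the mtDNA-encoded mRNAs and favours their polyadenylation. LRPPRC, at chr2:43886508-43996005, was at 168, 191 and 194 CPM in DMSO and at 230.3, 225 and 233 CPM after MPM-1. The groups did not overlap, and the rise was 1.24-fold (log2 fold change 0.31 ± 0.08, edgeR adjusted p = 0.00725), a call that was lost under library size alone (0.16, adjusted p = 0.121) and in limma on FPKM (0.22, adjusted p = 0.0620 with a pseudocount of 0.1). SLIRP was at 20.1, 22.9 and 26.6 CPM in DMSO and at 22.4, 25.3 and 19.7 CPM after MPM-1, with overlapping groups (-0.05, 95% interval -0.35 to 0.26).

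MTPAP, the mitochondrial poly(A) polymerase, was at 28.6, 30.9 and 30.03 CPM in DMSO and at 24.4, 23.2 and 29.7 CPM after MPM-1. Its log2 fold change of -0.21 (95% interval -0.46 to 0.04, edgeR adjusted p = 0.131) did not pass, but did so without MPM-1 library 3 (-0.31, adjusted p = 0.0452). GRSF1, a protein of the mitochondrial RNA granules, had overlapping groups at 0.04 (95% interval -0.13 to 0.21).

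The genes of RNA degradation were the role group with no member called lower, since 2 of 3 were higher and PNPT1 did not pass. With only 3 genes, that is 66.7% higher, against 27.7% of all genes, and 0% lower, against 28.8%. REXO2, an exoribonuclease that removes short RNAs left by degradation, lies at chr11:114439386-114450279 and was at 43.7, 46.7 and 49.4 CPM in DMSO. It was at 106, 110.4 and 108 CPM after MPM-1, which left a wide gap between the groups. The log2 fold change was 1.21 ± 0.08 (edgeR adjusted p = 2.58e-06), or 2.32-fold higher, and it ran from 1.17 to 1.26 when each library was left out.

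SUPV3L1 and PNPT1 together form the degradosome of the mitochondrion, as the helicase and the polynucleotide phosphorylase. SUPV3L1, at chr10:69180232-69209099, was at 36.7, 40.5 and 37.3 CPM in DMSO and at 54.8, 50.5 and 51.1 CPM after MPM-1, without overlap. It was 1.37-fold higher (log2 fold change 0.45 ± 0.08, edgeR adjusted p = 0.00116). PNPT1 was at 46.3, 55.5 and 56.0 CPM in DMSO and at 54.7, 52.5 and 50.2 CPM after MPM-1, with overlapping groups (95% interval of the log2 fold change -0.21 to 0.20, adjusted p = 0.973).

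Genes that work together or are related can be set against each other inside a library. The log2 ratio of their FPKM (fragments scaled for transcript length and library size, as deposited, plus 0.1) was taken for 6 pairs and compared by a two-sided exact permutation test over the libraries. The deposited FPKM did not follow the counts in a fixed proportion for every gene. MTERF4, for example, was at 17.9 CPM and 7.11 FPKM in DMSO library 1 and at 22.5 CPM and 6.04 FPKM in DMSO library 2. The reason was not tested, so a ratio of FPKM need not be a ratio of counts. With 3 libraries against 3 the exact permutation p cannot go below 0.1. The ratio of TRMT10C to HSD17B10 was -2.74, -2.25 and -2.25 in DMSO and -5.52, -3.66 and -4.32 after MPM-1, lower in every MPM-1 library (a difference of -2.09 in the mean, exact permutation p = 0.1, adjusted over the 6 pairs 0.15). TFAM to POLRMT was -1.87, -1.48 and -1.52 in DMSO and -2.44, -2.52 and -2.56 after MPM-1 (a difference of -0.88, exact p = 0.1, adjusted 0.15).

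LRPPRC to SLIRP was -0.70, -0.72 and -0.92 in DMSO and -0.38, -0.54 and -0.12 after MPM-1, a difference of 0.43, and PNPT1 to SUPV3L1 differed by -0.45, both with no overlap (exact p = 0.1, adjusted 0.15). These 4 pairs reached the smallest p that the design allows, and none can pass a threshold of 0.05 with it. For the other two pairs the groups overlapped. POLG to POLG2 was 1.17, 0.36 and 0.19 in DMSO and 0.56, 0.56 and 0.82 after MPM-1 (a difference of 0.07, exact p = 0.8). DMSO library 1 stood apart there, with POLG at 20.4 FPKM against 13.1 and 11.7 FPKM in the other DMSO libraries. In the counts the gap was smaller, with POLG at 58.0 CPM against 49.6 and 47.2 CPM. TFB2M to TFB1M differed by -0.20 (exact p = 0.4, adjusted 0.48).

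**Figure D3:**
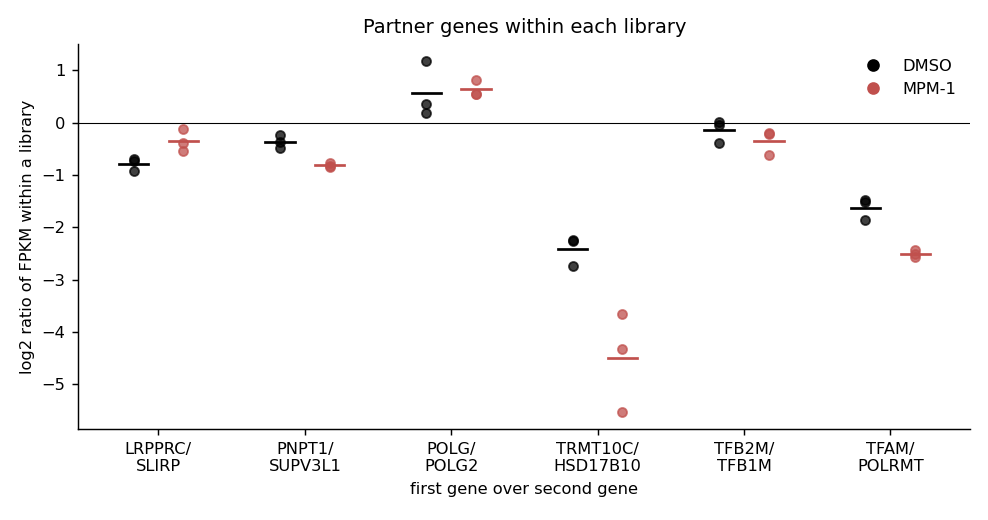
Log2 ratio of the FPKM of 2 partner or related genes within each library, for 6 pairs, with the 3 DMSO libraries in black, the 3 MPM-1 libraries in red and a bar at each mean. The groups lie apart for LRPPRC/SLIRP, PNPT1/SUPV3L1, TRMT10C/HSD17B10 and TFAM/POLRMT and overlap for POLG/POLG2 and TFB2M/TFB1M.

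The RNAs on which these factors act were measured in the same libraries. All 13 mRNAs encoded by mtDNA were lower after MPM-1, against 28.8% of all genes. Their log2 fold changes ran from -2.65 (MT-ND6) to -0.71 (MT-ND1), with a median of -1.89. MT-ND6, the mRNA of the strand opposite to the others, was at 1492, 1230.1 and 1391 CPM in DMSO and at 183, 209.7 and 265 CPM after MPM-1 (edgeR adjusted p = 8.15e-07). MT-CO2, for a subunit of cytochrome c oxidase, fell by a log2 fold change of 2.64 (adjusted p = 5.01e-07) and MT-ND3, for a subunit of complex I, by 2.28 (adjusted p = 6.17e-06). TRMT10C, the member with the lowest estimate, lay above this median at -1.68, but its 95% interval (-2.48 to -0.88) covered it, and without MPM-1 library 2 TRMT10C was at -2.15 and the median of the mRNAs at -1.88.

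Compared per transcript length, the members spanned a 286-fold range in DMSO. These levels are the deposited FPKM, which did not follow the counts in a fixed proportion for every gene. SSBP1 was at 116 ± 20.8 FPKM and HSD17B10 at 111 ± 8.32 FPKM (SD, n = 3), a difference smaller than the spread of SSBP1, followed by SLIRP at 54.2 ± 8.79 FPKM. TBRG4 (44.0 ± 1.45 FPKM), REXO2 (41.8 ± 3.19 FPKM) and ESRRA (41.3 ± 1.69 FPKM) came next, and REXO2 differed from either neighbour by less than its spread. At the other end PPARGC1B was at 0.404 ± 0.0696 FPKM, PTCD2 at 1.82 ± 0.696 FPKM and ANGEL2 at 3.60 ± 0.415 FPKM, and 15 members lay under 10 FPKM and 3 over 50 FPKM. The order of the means was nearly kept after MPM-1 (Spearman's rho 0.965 across the 37 genes, which share libraries and lengths and are not independent replicates). REXO2 at 94.9 ± 5.09 FPKM stood above SSBP1 at 86.9 ± 12.2 FPKM after MPM-1, within the spread of the latter, while TRMT10C went from 20.9 ± 4.09 to 5.91 ± 3.52 FPKM. For POLRMT, GRSF1 and ESRRA, which did not pass in the counts, the mean FPKM moved in the direction opposite to the fitted fold change.

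**Figure D4:**
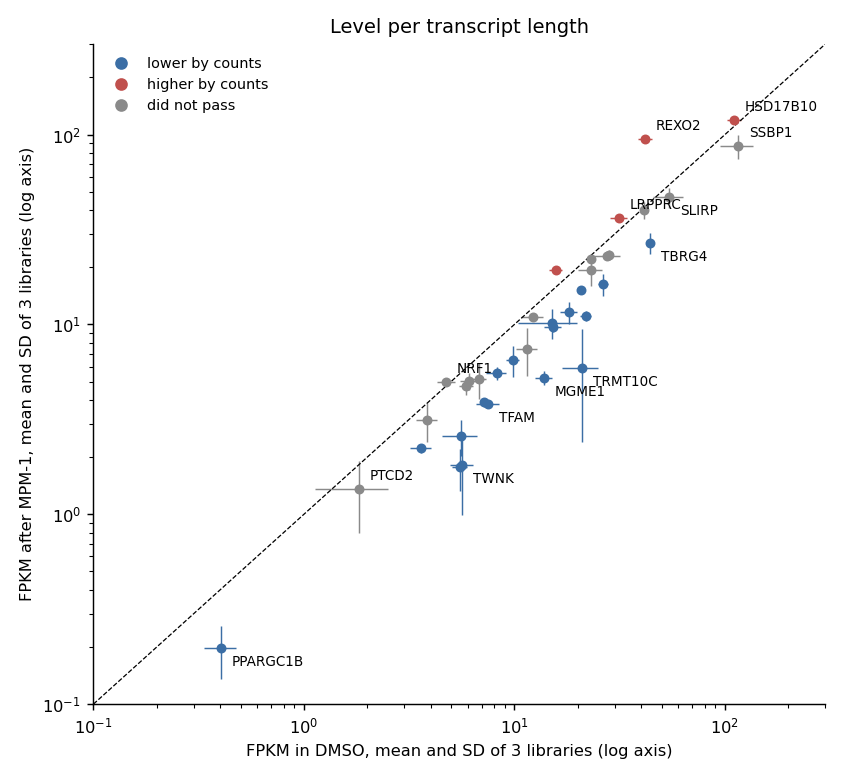
Mean FPKM of each of the 37 members in DMSO (horizontal) and after MPM-1 (vertical), both on log axes, with bars for the SD of 3 libraries, colours for the call in the counts and a dashed line of equal level. REXO2 lies above the line at 94.9 against 41.8 FPKM and TRMT10C lies furthest below it at 5.91 against 20.9 FPKM.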

How the data were processed

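RNA sequencing was carried out on 6 libraries of SW480 cells, and samples were grouped by the treatment in their labels. For every gene and library the authors deposited a whole-number count without normalization and an FPKM, and the log2 fold changes and FDR values in the same table, which hold the authors' comparison, were not used. The submitters' processing notes name HISAT2, DESeq2 and mm10, which is a mouse build, while the gene identifiers are human Ensembl identifiers. The table gives no coordinates, and the counter, the annotation, the use of strand and the filter on genes are not given in the sources used here. The lowest total count of a gene was 115. Columns were matched to samples by name and 0 columns of per-sample values were left unused.

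Positions and exon overlaps came from GENCODE 29 on GRCh38. Counts were tested with edgeR 4.0.16 in R 4.3.3 (TMM, quasi-likelihood F-test, Benjamini-Hochberg adjustment over 12982 genes, no covariates, common dispersion 0.0231). The alternatives used DESeq2 1.42.0 and limma 3.58.1 on log2(FPKM + pseudocount) for genes averaging 1 FPKM or more. With a pseudocount of 1 this scale understates the change of low genes. The scripts were tested on simulated data. At most 11.6% of the exon bases of a member overlap another gene of the table, apart from MTERF4 and PTCD1. For PTCD1 the overlap with BUD31 on the opposite strand was 15.8%. Genes outside the table overlap MTPAP (the pseudogene GOLGA2P6 on the same strand, 19.4%, and an antisense gene, 13.4%) and TEFM (an antisense gene, 16.8%). Whether their reads were counted for these members is not given in the sources used here.

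The members and lists were chosen with earlier results of these data known. In each role group the 3 largest rises and falls among members called were given with values, TFAM, POLRMT, POLG, TWNK, LRPPRC, NRF1, ESRRA and PPARGC1B whatever they did, and the other members by their log2 fold change. In the other lists the 3 largest rises and falls among genes called were given. Values per library for KIAA0391, SLIRP, MTPAP and PNPT1 were added after they had been seen.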

Additional observations from a re-analysis of the deposited data

How the results depend on the processing

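Under DESeq2's size factors, DESeq2's test, scaling without the mtDNA-encoded genes and a filter at a mean of 50 counts, 4 members were higher and 18 or 19 lower. These fits called 27.6% to 29.1% of all genes higher and 27.8% to 29.2% lower. Only 2 remained higher (REXO2 and SUPV3L1) under library size alone and in limma on FPKM with pseudocounts of 1, 0.1 and 0.01 and without the filter, and 19 to 23 were lower, in fits that called 19.2% to 20.5% of all genes higher and 35.1% to 37.5% lower. The median log2 fold change of the members became -0.53 under library size alone, and that of the mtDNA-encoded mRNAs -2.04 there and -2.05 in limma on FPKM. The median of all genes was -0.18 under library size alone and -0.15 to -0.13 in limma on FPKM. PPARGC1B was not tested in limma with the filter. An adjusted p under 0.01 left 3 members higher and 15 lower, and the share of all genes at this threshold was not computed.

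Leaving out each library in turn gave 3 to 4 members higher, 15 to 19 lower and 4 to 6 DEGs. These fits called 23.3% to 27.8% of all genes higher and 23.7% to 27.5% lower, and their share of DEGs among all genes was not computed. The median ran from -0.36 to -0.29 for the members (the latter without MPM-1 library 1) and from -1.93 to -1.82 for the mtDNA-encoded mRNAs.

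Estimates that changed sign belonged to members that passed under none of the alternatives. They were POLRMT (-0.072), GRSF1 (-0.11) and ESRRA (-0.043) under library size alone, POLRMT (-0.068, -0.071, -0.071 and -0.068), GRSF1 (-0.24, -0.25, -0.25 and -0.24) and ESRRA (-0.049, -0.050, -0.050 and -0.049) in limma on FPKM with pseudocounts of 1, 0.1 and 0.01 and without the filter, and PNPT1 under DESeq2's size factors (0.016) and test (0.015). On leaving out a library, PNPT1 ran from -0.087 to 0.043, SLIRP from -0.14 to 0.062 and TFB1M from -0.21 to 0.0028. The ratio of POLG to POLG2 was -0.052 on log2 CPM and ran from -0.12 to 0.37 on leaving out a library. The cause was not tested.

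No sign of pairing by replicate number was seen. Deviations of libraries with the same number correlated at 0.0214, 0.114 and -0.0737, and those with different numbers at -0.130 to 0.115. With 3 libraries per group these values cannot tell whether the libraries were handled in pairs. With the number as a block, 4 members were higher and 19 lower, in a fit that called 26.8% of all genes higher and 28.1% lower. In this fit 5 members were DEGs, and the share of DEGs among all genes was not computed. The medians were -0.36 for the members and -1.90 for the mtDNA-encoded mRNAs, and MTERF3 passed (edgeR adjusted p = 0.0254).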
